A study of Mus musculus with 21 samples.

Results

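The genes described here are the nuclear genes for the proteins of the mitochondrial ribosome, taken as every protein-coding mouse gene whose symbol begins with Mrpl or Mrps followed by a number. They came to 78 genes of the 53801 gene identifiers in each count file, 49 with an Mrpl symbol and 29 with an Mrps symbol, and 5 pseudogenes whose symbols carry -ps were left out. Bulk RNA-seq had been made of 15 mouse hearts and, apart from these, of 6 cultures of mouse cardiac fibroblasts. Each heart sample was labelled border zone, day 7. The 3 sham hearts and the 4 hearts with myocardial infarction (MI) were wild type, 4 further wild-type infarcted hearts carried the treatment label MI+FAPI (FAPI below), and 4 infarcted hearts had the genotype label FapKO, a knockout of Fap, which encodes fibroblast activation protein. The labels give no dose or schedule for FAPI, no age or sex, and no account of how the FapKO allele was made or whether it covers the whole body, and they do not say that each heart sample was its own animal, so the p-values below measure the spread between these samples. The cultures were fibroblasts from mouse heart ventricles kept 7 days in a 5% GelMA hydrogel, a gelatin-based gel, either alone (3 libraries) or with endothelial cells from heart and lung (3 libraries, called co-culture below). The series calls these biological replicates. Heart libraries are labelled total RNA and culture libraries polyA RNA. The co-cultured fibroblasts were sorted as CD45-, CD31-, Pdgfr-alpha+ cells before extraction, whereas the fibroblasts grown alone were taken directly from the dissociated gel, so the sort and the culture condition cannot be told apart.

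The mitochondrial ribosome (mitoribosome) translates the few proteins encoded by mitochondrial DNA, all of them core subunits of the respiratory chain and ATP synthase. Its ribosomal RNAs are mitochondrial transcripts, but its proteins are made from nuclear genes in the cytosol and imported, so building it needs both genomes. Part of the proteins descend from bacterial ribosomal proteins, and part are found only in mitochondria. Heart muscle, with its dense mitochondria, makes heavy use of this machinery.

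Of the 78 genes, 51 encode proteins of the large subunit and 26 of the small subunit. Mrps30 and Mrps18a are counted with the large subunit, where their products sit in spite of their names, and Mrps36 with neither, since its product is a component of the oxoglutarate dehydrogenase complex of the citric acid cycle. In the list used here, 47 were classed as having a bacterial homologue and 30, Mrps18b among them, as mitochondrion-specific. Mrps18a and Mrps18c, which share their S18 name with Mrps18b, were in the first class. The genes lay on 17 chromosomes, 11 of them on chromosome 11 (GRCm38, GENCODE M21). A start of another protein-coding gene on the opposite strand lay within 500 bp of the start of 25 of the 78 (32.1%), against 8.91% of all 21890 protein-coding genes. Mrpl46 and Mrps11 shared such a start with each other, Mrps12 with Sars2 (the mitochondrial seryl-tRNA synthetase), Mrps27 with Ptcd2 and Mrpl36 with Ndufs6, a subunit of respiratory complex I.

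RefSeq promoter sequences (GRCm38.p6, from 250 bases before to 50 bases after the start) were found for 69 of the 78 genes. They were searched on both strands for short motifs of factors known for nuclear genes of mitochondrial proteins. The NRF1 motif (GCGC, any 2 bases, GCGC) occurred in 14 of 69 (20.3%), against 7% of 27025 promoters of all genes and 9.61% of 17492 promoters of protein-coding genes. The GABP/ETS motif CCGGAAG occurred in 26 (37.7%, against 9.93% and 12.9%), and the YY1 motif AAGATGGC in 12 (17.4%, against 3.19% and 3.57%). At least 1 of the 3 was present in 44 of 69 (63.8%, against 17.9% and 23%). The SP1 motif GGGCGG, in 34 of 69 (49.3%), was at the share of protein-coding promoters (49.2%), and the motif of the oestrogen-related receptors, TCAAGGTCA, was in none of the 69 windows, against 0.466% of all promoters. The 4 stretches below are the 150 bases before the start, 5′ to 3′ on the gene's own strand, and show the first 3 kinds of match in genes whose values follow below. Capitals mark the match, and none of the marked matches overlaps another. Mrpl12 (chr11:120484487-120484636, plus strand) and Mrpl45 (chr11:97315566-97315715, plus strand) held the NRF1 motif, Mrpl43 (chr19:45006443-45006592, minus strand) the GABP/ETS motif, and Mrpl36 (chr13:73330859-73331008, plus strand) the YY1 motif read on the opposite strand. For Mrpl36 the RefSeq start differs from the GENCODE start (chr13:73328513) used for the neighbours above. Its printed letters therefore do not cover the start it shares with Ndufs6. A match is a string of letters and was not tested as a binding site.
Mrpl12: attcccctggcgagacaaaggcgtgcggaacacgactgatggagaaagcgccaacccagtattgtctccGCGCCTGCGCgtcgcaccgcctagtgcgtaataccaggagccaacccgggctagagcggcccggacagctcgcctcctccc
Mrpl45: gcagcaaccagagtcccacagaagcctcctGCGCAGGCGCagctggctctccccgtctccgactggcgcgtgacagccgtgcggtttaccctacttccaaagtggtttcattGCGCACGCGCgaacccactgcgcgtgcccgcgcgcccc
Mrpl43: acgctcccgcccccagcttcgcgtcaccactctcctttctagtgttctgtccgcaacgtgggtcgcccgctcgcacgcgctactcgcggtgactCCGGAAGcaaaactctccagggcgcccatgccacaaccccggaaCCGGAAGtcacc
Mrpl36: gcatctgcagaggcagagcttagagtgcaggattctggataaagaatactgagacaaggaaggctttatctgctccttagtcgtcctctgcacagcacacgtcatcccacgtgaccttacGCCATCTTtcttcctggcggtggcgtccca

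Total counts ran from 18474138 to 37287355 in the hearts, from 12871240 to 15650221 in fibroblasts grown alone and from 4735337 to 6346015 in co-culture. In the check of the labels, Fap was at 2.71 to 3.86 CPM (counts brought to a common library size, with the TMM method's correction for composition) in sham and at 9.40 to 13.2 CPM in MI hearts. It was at 6.47 to 10.4 CPM with FAPI and at 1.79 to 2.36 CPM with FapKO, so that the FapKO hearts were the lowest but not at 0. All libraries were compared with edgeR's quasi-likelihood test on the counts, with Benjamini-Hochberg adjustment over all genes tested (17064 in hearts and 12293 in cultures) and a threshold of 0.05. Of the 78 genes, 77 passed the filter on low counts in both experiments. The other, Mrpl53, had 0 counts in every library, each of which allows up to 3 counts; 88.0% of its exon bases lie inside other genes on the same strand, Gm42688 and Ccdc142os. Mrps34 (77.8% of its exon bases shared with other genes) and Mrps18b (30.5%) were at 2.42 CPM or less in every heart, and 10 of the 78 shared more than 20% of their exon bases. The other 7 were Mrps25 (69.8%), Mrpl19 (36.0%), Mrpl43 (33.4%), Mrpl24 (26.3%), Mrpl47 (24.2%), Mrps27 (24.2%) and Mrps18c (23.2%). The labels do not say whether counting used strand, so the values of these 10 are uncertain.

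Relative to the bulk of genes, to which TMM scales, the infarcted hearts held less RNA of every tested mitoribosomal gene than the sham hearts. All 77 were lower in MI and none was higher, against 32.0% of all genes tested that were lower and 37.1% that were higher, while with library totals as the scale 59 were lower and 5 higher. MI and sham values lay apart for 75 of the 77 genes (67.5% of all genes). Their median log2 fold change was -1.73, that is 3.31-fold lower, beside 0.14 for all genes, and 72 of the 77 fell by at least 1 on the log2 scale (18.2% of all genes). The changes ran from -3.09 for Mrps36 to -0.60 for Mrpl24. The large-subunit genes (median -1.73, 50 genes) and the small-subunit genes (-1.63, 26 genes) had nearly the same median, as did the genes with a bacterial homologue (-1.66, 47 genes) and the mitochondrion-specific ones (-1.74, 29 genes). No test was made between these classes.

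**Figure D1:**
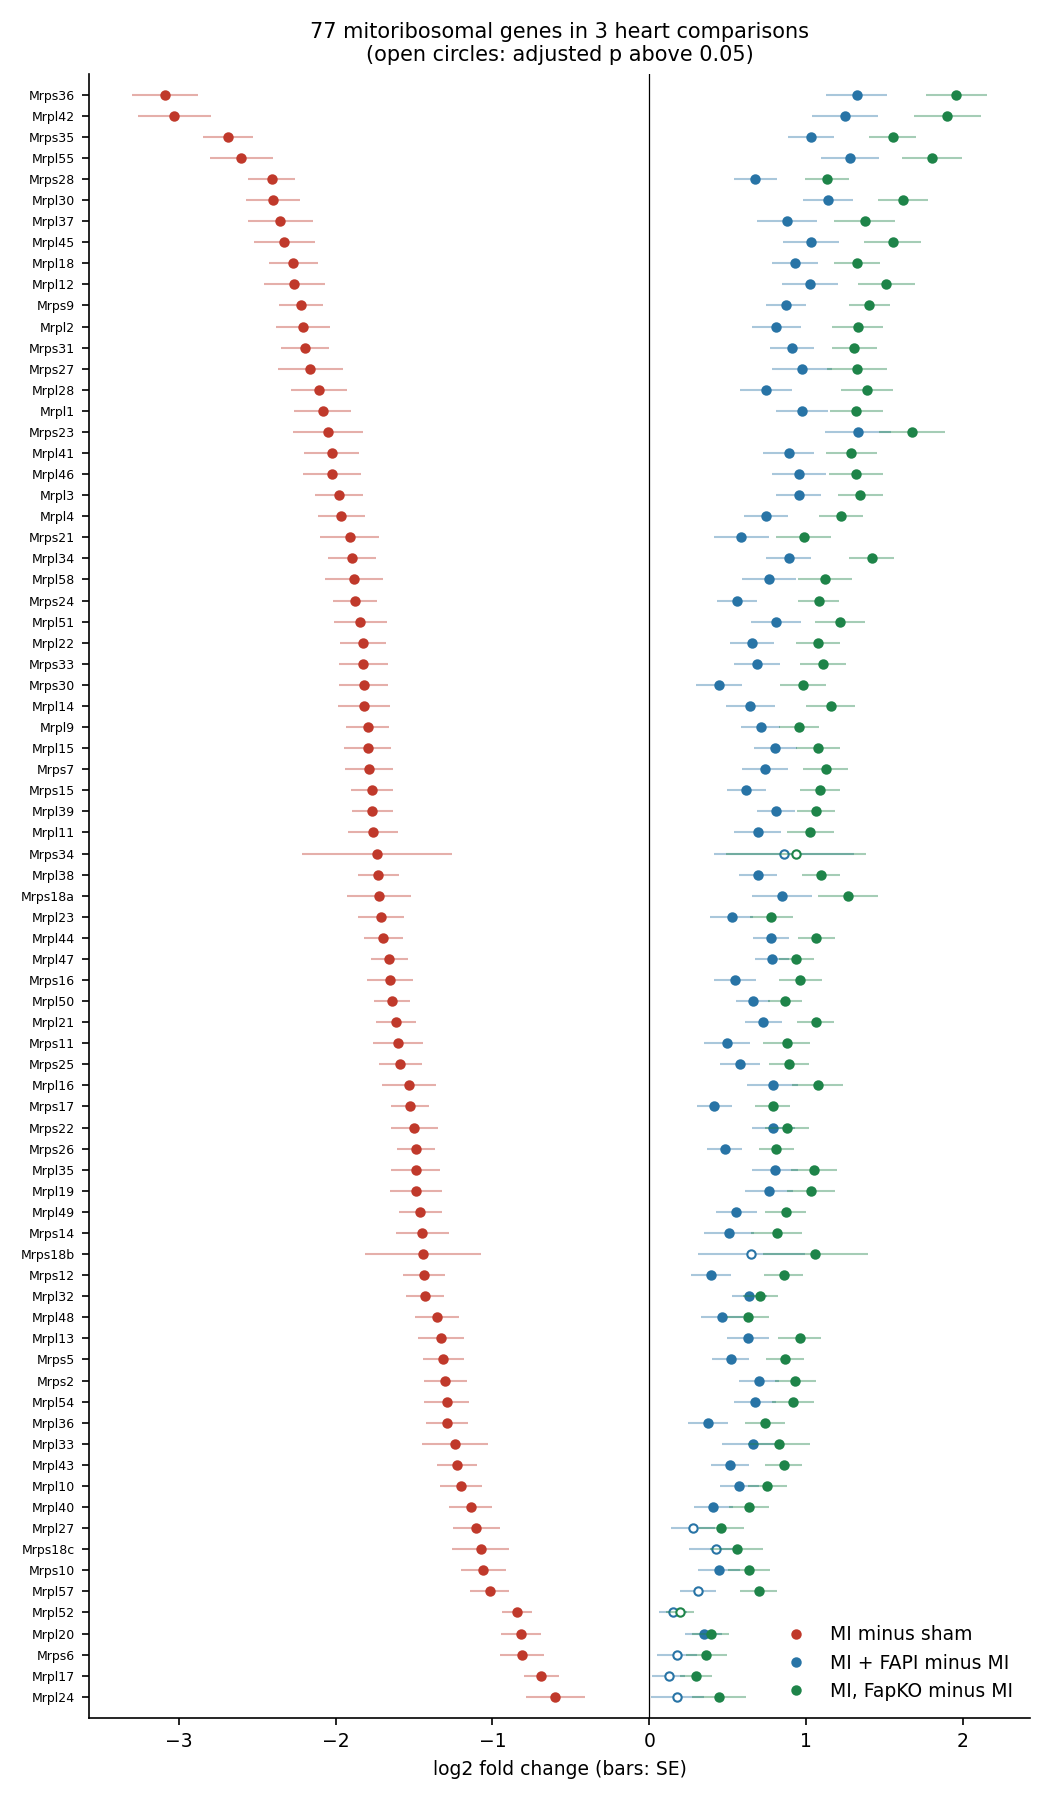
Log2 fold change (x axis, with its standard error as a bar) of each of the 77 tested mitoribosomal genes (y axis, ordered by MI minus sham) in 3 heart comparisons. With TMM scaling all 77 red points (MI minus sham) lie below 0 and the blue (FAPI minus MI) and green (FapKO minus MI) points above 0, 9 blue and 2 green ones being open because their adjusted p was above 0.05; with library totals 5 genes were higher in MI than in sham and 2 lower in FAPI and in FapKO than in MI.

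Mrpl42, a mitochondrion-specific protein of the large subunit, had the highest CPM of the group in sham hearts. It was at 4028, 3538 and 2789 CPM in the 3 sham hearts and at 444, 326, 539 and 383 CPM in the 4 MI hearts. It was at 832, 1137, 752 and 1295 CPM in the FAPI hearts and at 1663, 1334, 2002 and 1319 CPM in the FapKO hearts. No group overlapped another, in the order sham, FapKO, FAPI, MI. The log2 fold change of MI against sham was -3.03 (SE 0.23, adjusted p = 1.4e-08 by edgeR's quasi-likelihood test). Per kilobase of exon Mrpl42 (938 CPM per kb in sham) stood behind Mrps21, a small-subunit protein of bacterial descent, at 1081 CPM per kb.

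Mrps36, the oxoglutarate dehydrogenase component, had the largest fall. It was at 433, 395 and 282 CPM in sham and at 48.6, 39.0, 53.5 and 33.0 CPM in MI, a difference of -3.09 on the log2 scale (SE 0.21, adjusted p = 5.2e-09 by edgeR). The other 3 genes of that complex, Dld, Dlst and Ogdh, changed by -2.46, -2.13 and -2.55 and all fell.

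Among the small-subunit genes the largest fall was that of Mrps35, from 149, 146 and 142 CPM in sham to 20.4, 17.2, 29.2 and 23.7 CPM in MI (log2 fold change -2.69, SE 0.16). Mrps28 followed with -2.41. Among the large-subunit genes Mrpl42 was followed by Mrpl55 (-2.60), Mrpl30 (-2.40), Mrpl37 (-2.35), Mrpl45 (-2.33), Mrpl18 (-2.27) and Mrpl12 (-2.26). Mrpl45 lies at the exit of the tunnel through which the new protein leaves the large subunit, and Mrpl12 forms the stalk that receives the translation factors. Mrpl12 was at 168, 178 and 153 CPM in sham and at 28.5, 28.6, 48.4 and 33.0 CPM in MI, with the third MI heart the highest of its group. Mrpl43, whose GABP/ETS letters are printed above and whose exons partly overlap Twnk, was at 117, 96.0 and 93.2 CPM in sham and at 44.1, 36.6, 50.4 and 43.3 CPM in MI.

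At the other end, Mrpl24 (-0.60), Mrpl17 (-0.69), Mrps6 (-0.81), Mrpl20 (-0.82) and Mrpl52 (-0.84) had the smallest falls, with the value of Mrpl24 uncertain for its overlap with Rrnad1. Mrpl17 was at 178, 156 and 145 CPM in sham and at 111, 90.2, 99.3 and 94.7 CPM in MI, so that the groups were still apart. For Mrpl24 they overlapped, with 8.34 CPM in the third sham heart and 8.39 CPM in the first MI heart. These 5 were called the other way under another scaling. When counts were scaled by library totals alone, 59 of the 77 genes were lower (11.9% of all genes) and these 5 were higher (74.2% of all genes) in MI than in sham. The mitoribosomal median was then -0.65, while that of all genes moved from 0.14 to 1.23. Measured against the median of all genes, the mitoribosomal median was -1.87 with TMM and -1.88 with library totals.

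Genes with particular roles fell in MI as well. Mrpl58, a peptidyl-tRNA hydrolase built into the large subunit, changed by -1.88. Mrps12, at the decoding site of the small subunit, changed by -1.44. The 3 genes named after bacterial ribosomal protein S18 were Mrps18a in the large subunit (-1.73), Mrps18b (-1.44) and Mrps18c (-1.08) in the small one. For Mrps18b, at 2.42 CPM or less, MI and sham values overlapped. Mrpl34, Mrpl41 and Mrps30 changed by -1.90, -2.03 and -1.82.

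**Figure D2:**
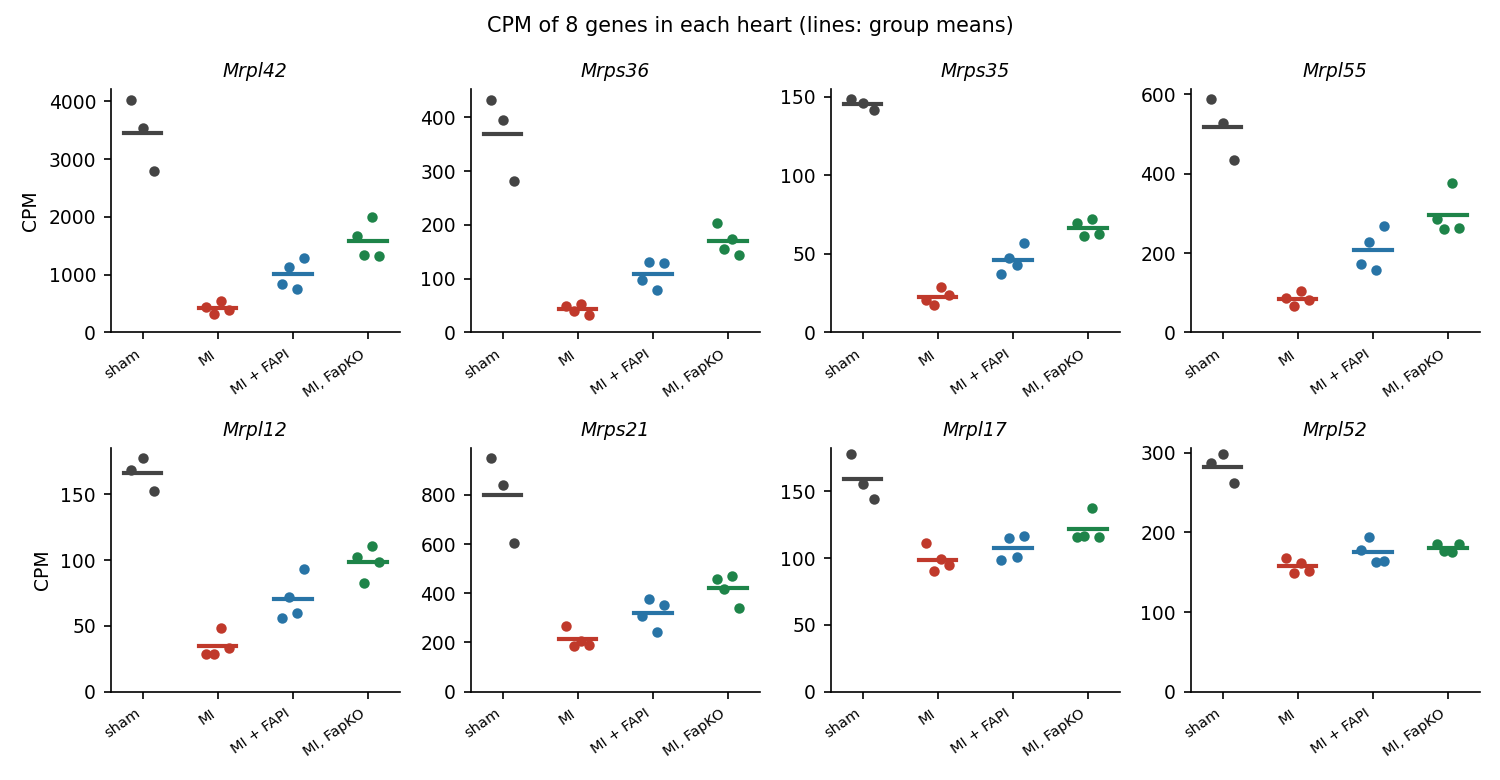
CPM (y axis, from 0) of 8 mitoribosomal genes in each of the 15 hearts by group, with a line at each group mean. Mrpl42, Mrps36, Mrps35, Mrpl55, Mrpl12 and Mrps21 step from sham down through FapKO and FAPI to MI, while Mrpl17 and Mrpl52 differ less between the infarcted groups.

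The next comparisons set the FAPI and the FapKO hearts against the same 4 MI hearts, so they share them with each other and with the comparison above. Hearts with MI and FAPI held more of the mitoribosomal RNAs than hearts with MI alone. Of the 77 genes, 68 were higher in FAPI than in MI and none was lower, against 17.9% higher and 11.9% lower of all genes tested. The median log2 fold change was 0.69 (1.61-fold), beside -0.03 for all genes. FAPI and MI values lay apart for 61 of the 77 (26.1% of all genes), and 8 rose by at least 1 on the log2 scale (6.5% of all genes). The largest rise was that of Mrps23, a small-subunit protein. It was at 53.6, 44.5, 92.6 and 57.6 CPM in MI and at 132, 166, 122 and 204 CPM in FAPI (log2 fold change 1.33, SE 0.21, adjusted p = 0.00033 by edgeR). Mrps36 (1.32), Mrpl55 (1.28), Mrpl42 (1.25) and Mrpl30 (1.14) followed.

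The 9 genes that did not pass in this comparison had log2 fold changes above 0 too, the smallest being 0.12 for Mrpl17, 0.15 for Mrpl52, 0.18 for Mrps6 and for Mrpl24, and 0.28 for Mrpl27. Mrps18c (0.42, adjusted p = 0.071 by edgeR) and the scarcely detected Mrps18b (0.65) and Mrps34 were among them. Scaled by library totals, 43 genes were higher (8.49% of all genes) and 2, Mrpl17 and Mrpl52, lower (49.7% of all genes). Their median was then 0.27, while that of all genes moved from -0.03 to -0.44.

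The FapKO hearts also held more of the mitoribosomal RNAs than the wild-type MI hearts. Of the 77 genes, 75 were higher in FapKO and none was lower, against 25.0% higher and 26.0% lower of all genes tested. The median log2 fold change was 1.05 (2.07-fold), beside -0.08 for all genes. FapKO and MI values lay apart for 74 of the 77 (45.4% of all genes), and 41 rose by at least 1 on the log2 scale (11.4% of all genes). Mrps36 was at 203, 155, 175 and 144 CPM in FapKO against 33.0 to 53.5 CPM in MI, a rise of 1.96 on the log2 scale (SE 0.20, adjusted p = 1.3e-06 by edgeR). Next came Mrpl42 (1.90), Mrpl55 (1.80), Mrps23 (1.67) and Mrpl30 (1.62). Mrpl12 (1.51) and Mrpl45 (1.55), whose promoters with NRF1 letters are printed above, were among the next.

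Only Mrpl52 (0.20, adjusted p = 0.077 by edgeR) and Mrps34 (0.94, at under 2 CPM, adjusted p = 0.092) did not pass. By library totals 59 genes were higher (12.2% of all genes) and 2, again Mrpl17 and Mrpl52, lower (61.3% of all genes), with a median of 0.51 while that of all genes moved from -0.08 to -0.63.

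With TMM scaling, most mitoribosomal genes were still lower in FAPI and FapKO hearts than in the 3 sham hearts. No sham heart carried the FapKO or FAPI label, so infarction cannot be told apart from genotype or treatment in these comparisons. For the same reason, a FapKO difference present before infarction cannot be told apart from a response to it. Of the 77 genes, 74 were lower in FAPI than in sham and none was higher, against 26.5% and 29.2% of all genes tested. Their median log2 fold change was -1.01, 41 fell by at least 1 on that scale (10.8% of all genes), and the values lay apart for 74 (57.5% of all genes). Against the same sham hearts, 69 were lower in FapKO and none was higher (20.3% and 19.2% of all genes), the median being -0.69. Those that fell by at least 1 were 4 genes, Mrps28, Mrps35, Mrpl42 and Mrps36 (4.42% of all genes), and the values lay apart for 70 (46.8%).

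Mrpl42 had the largest gap to sham in FAPI (-1.78) and Mrps28 in FapKO (-1.27). Between FapKO and sham, 8 genes did not pass. Mrps23 was one of them, at 286, 265 and 219 CPM in sham and at 177, 174, 240 and 201 CPM in FapKO, which overlap (-0.37, SE 0.22). The others were Mrpl13, Mrpl24, Mrpl33, Mrpl57, Mrps18a, Mrps18b and Mrps34. By library totals 50 genes were lower in FAPI than in sham and none was higher (9.56% and 63.1% of all genes). For FapKO 15 were lower and 1, Mrpl57, was higher (4.83% and 53.7% of all genes). The mitoribosomal medians were then -0.35 and -0.15, while those of all genes moved from 0.09 to 0.77 and from 0.05 to 0.59.

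Compared directly, 17 of the 77 genes were lower in FAPI than in FapKO and none was higher, against 6.12% and 7.05% of all genes tested. Values lay apart for 22 of the 77 (18.6% of all genes). The median log2 fold change was -0.35, and none fell by 1 or more (1.68% of all genes). Mrps9, a small-subunit protein of bacterial descent, differed by -0.53 (SE 0.13, adjusted p = 0.013 by edgeR), and Mrpl28 by -0.64. The count rested on single hearts. It was 0 by edgeR without the third FAPI heart (32 at an unadjusted p under 0.05), 3 without the first and 44 without the fourth. Of all genes, 3.098%, 3.411% and 8.05% were lower in these 3 fits. It was 5 and 1 without the first and the third FapKO heart (3.901% and 2.905% of all genes). By library totals it was 20, with none higher (4.37% and 9.22% of all genes).

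Group means ran in the order sham, FapKO, FAPI, MI for 77 of the 77 genes, an order that 23.23% of the 17064 genes tested had. Over the 15 hearts the mean of log2(CPM + 1) over the group was 7.12 to 7.42 in sham, 6.53 to 6.82 in FapKO, 6.10 to 6.55 in FAPI and 5.37 to 5.84 in MI. FapKO and FAPI came within reach of each other, the highest FAPI heart (6.55) lying above the lowest FapKO heart (6.53). As a share of all counts, with no scaling, the 78 genes took 1.23% to 1.41% in sham and 0.692% to 0.791% in MI hearts, against 0.877% to 1.03% with FAPI and 1.07% to 1.26% with FapKO. On this share the highest FapKO heart lay above the lowest sham heart.

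**Figure D3:**
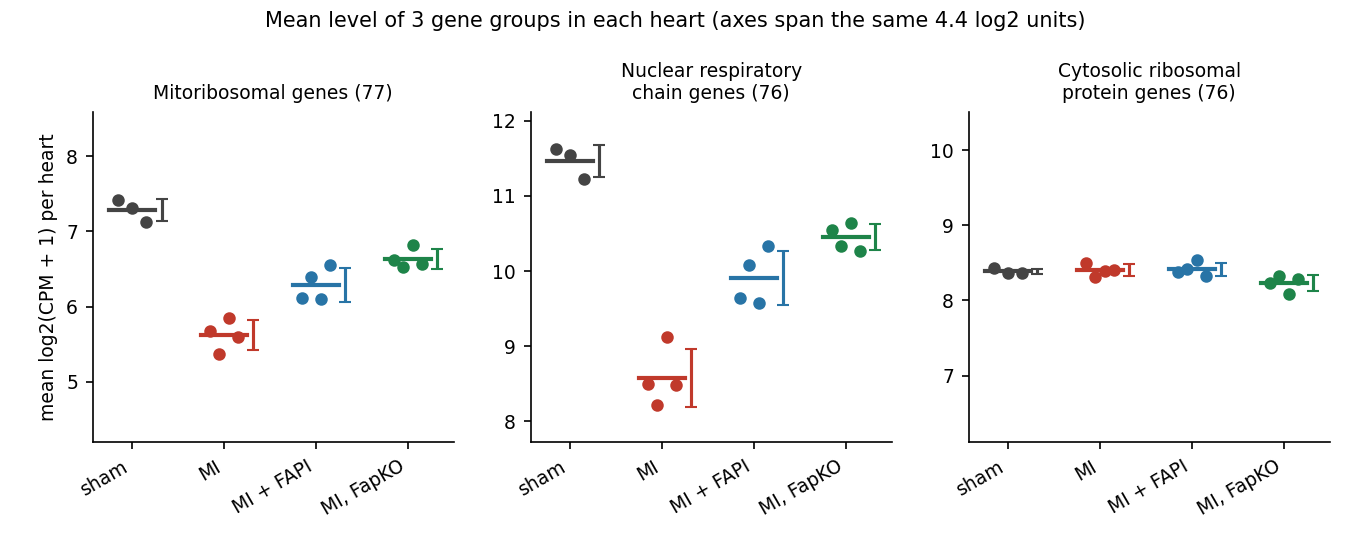
Mean of log2(CPM + 1) in each heart (points) for the 77 mitoribosomal, 76 nuclear respiratory chain and 76 cytosolic ribosomal protein genes, with the group mean as a line and its SD as a bar, the 3 axes spanning equal lengths. The first 2 groups of genes are lowest in MI and highest in sham, while the cytosolic ribosomal protein genes lie between 8.09 and 8.53 in every heart.

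The rest of the machinery for mitochondrial protein synthesis was read from lists of known genes. The 5 mitoribosomal proteins with other symbols (Dap3, Ptcd3, Chchd1, Aurkaip1 and Gadd45gip1) all fell in MI, with a median of -1.73, and all rose in FAPI (0.66) and FapKO (0.94). Ptcd3, a small-subunit protein with RNA-binding repeats, had the largest change of the 5, from 20.1 ± 2.04 CPM (SD, n = 3) in sham to 4.57 ± 1.14 CPM (SD, n = 4) in MI. Of the genes for assembly of the mitoribosome and modification of its RNA, 26 of 28 fell in MI and none rose, with a median of -1.36. With library totals 13 fell and 6 rose, where 11.9% of all genes fell and 74.2% rose. C1qbp, which takes part in mitoribosome assembly, fell by 2.30 on the log2 scale.

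All 15 tested translation factors fell in MI (median -1.35, and 9 fell and 2 rose with library totals), among them Tufm, the mitochondrial elongation factor that brings aminoacyl-tRNA to the ribosome (-2.38). Of the 20 mitochondrial aminoacyl-tRNA synthetase genes 17 fell (median -1.27, and 9 fell and 5 rose with library totals). Of the 13 genes of mitochondrial DNA transcription and replication 8 fell and 1, Primpol, rose (median -1.07, and 4 fell and 5 rose with library totals). In FAPI against MI, 18 of 28 assembly genes, 14 of 15 translation factors, 14 of 20 synthetases and 7 of 13 transcription and replication genes were higher and none was lower, while library totals gave 3, 6, 5 and 3 higher and 4, 1, 2 and 4 lower. For FapKO against MI the counts were 22, 14, 17 and 8 higher with none lower, and with library totals 10, 9, 7 and 4 higher and 5, 1, 2 and 4 lower. Of all genes tested, 17.9% were higher and 11.9% lower in FAPI against MI, and 25.0% and 26.0% in FapKO against MI. With library totals these shares were 8.49% and 49.7%, and 12.2% and 61.3%. In MI against sham 32.0% of all genes were lower and 37.1% higher, and 11.9% and 74.2% with library totals.

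The RNAs for the proteins that the mitoribosome makes, and for their nuclear partners, had medians further from 0. The proteins themselves were not measured. The 76 nuclear genes of the respiratory chain and ATP synthase all fell in MI, with a median of -2.85, and all rose in FAPI (1.30) and in FapKO (1.81). Of the 13 protein genes of mitochondrial DNA only 9 passed the filter on low counts, and why the others had few counts was not tested. Of these 9, 8 fell and 1, mt-Nd3, rose in MI (median -2.67). Why mt-Nd3 went against the rest was not tested either. Both mitochondrial ribosomal RNAs fell, mt-Rnr2 by 2.65 and mt-Rnr1 by 2.31 on the log2 scale. These RNAs were measured in libraries labelled total RNA, and the heart protocol names no step for ribosomal RNA. The libraries followed a Smart-seq2 variant, and how fully it captured these RNAs was not tested. The mean log2(CPM + 1) of the nuclear respiratory chain genes lay above that of the mitoribosomal genes by 4.10 to 4.22 in the sham hearts, by 2.82 to 3.28 in the MI hearts, by 3.48 to 3.77 with FAPI and by 3.70 to 3.93 with FapKO, with no test made of this difference. Cytosolic ribosomal protein genes did not share the pattern: of 76, 15 rose and 12 fell in MI, with a median of 0.05, and in FapKO against MI 3 rose and 26 fell (median -0.21). With library totals, under which the median of all genes was 1.23, 74 of the 76 were higher in MI than in sham (74.2% of all genes).

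Genes for regulators of nuclear mitochondrial genes did not move as 1 group. Of 13, 7 fell and 3 rose in MI, against 32.0% and 37.1% of all genes tested. Ppargc1a, a coactivator of mitochondrial gene expression, fell by 3.42 on the log2 scale in MI, to 9.37 ± 3.77 CPM (SD, n = 4), and was at 29.0 ± 7.73 CPM in FAPI and 46.1 ± 7.41 CPM in FapKO (SD, n = 4 each). Esrrb, an oestrogen-related receptor, fell by 3.49 on the log2 scale in MI and rose by 1.76 in FAPI and 2.54 in FapKO against MI. Among the other factors whose letters were searched above, Yy1 rose in MI (0.62). Nrf1 was at 8.83 ± 1.20 CPM (SD, n = 3) in sham and 9.93 ± 1.07 CPM (SD, n = 4) in MI and did not pass. Gabpa, a subunit of GABP, fell by 0.46 in MI but rose with library totals. Myc (1.29) and Pprc1 (0.63) were the other risers in MI. With library totals 7 of the 13 rose and 6 fell (74.2% and 11.9% of all genes).

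**Figure D4:**
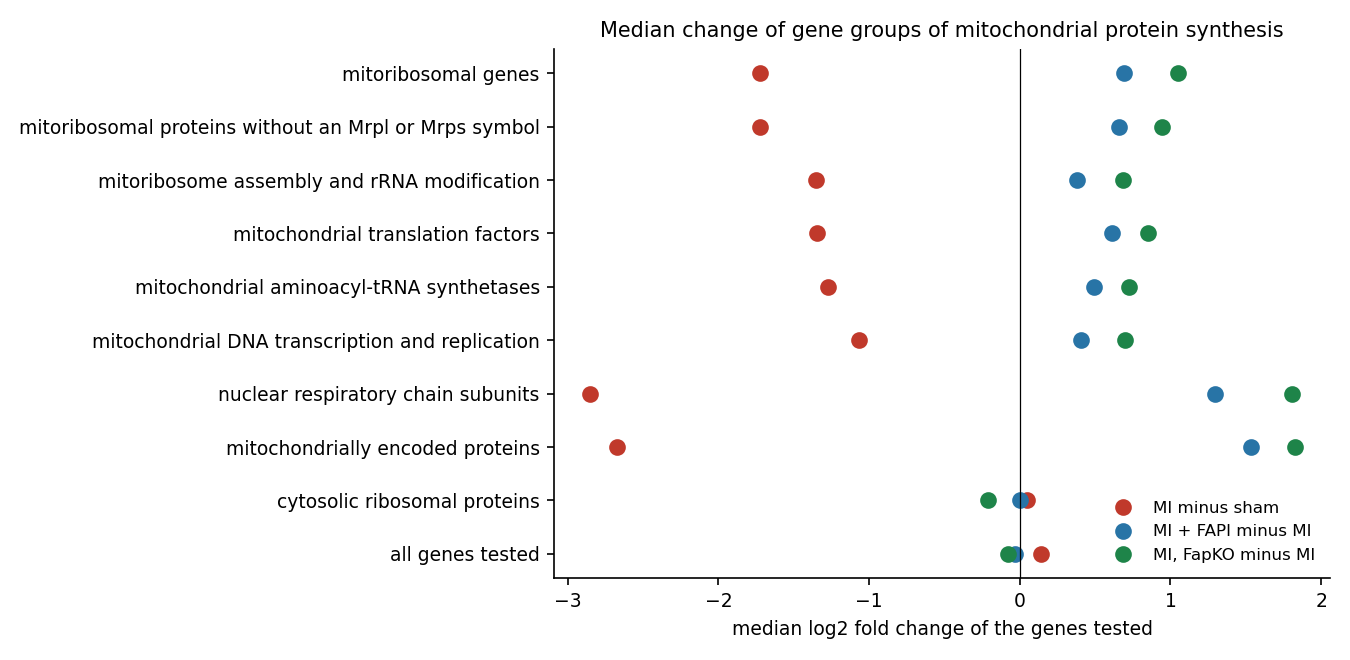
Median log2 fold change (x axis) of the tested genes of 10 gene groups (y axis) in MI minus sham (red), FAPI minus MI (blue) and FapKO minus MI (green). The groups of mitochondrial protein synthesis lie between -1.73 and -1.07 in MI, the respiratory chain groups beyond -2.6, and the cytosolic ribosomal proteins near 0 with all genes.

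Genes that share a start with a mitoribosomal gene moved in both directions. Of the 23 partners that are not mitoribosomal genes themselves, 21 were tested. In MI 8 fell and 5 rose (Mtbp, Ighmbp2, Mitd1, Ska3 and Gga3), where 32.0% of all genes fell and 37.1% rose. In FapKO against MI 8 rose and 3 fell (Mitd1, Ska3 and Gga3), where 25.0% of all genes rose and 26.0% fell. With library totals 5 fell and 15 rose in MI (11.9% and 74.2% of all genes). In FapKO against MI 6 then rose and 12 fell (12.2% and 61.3% of all genes). Ndufs6, across from Mrpl36, fell from 3268 ± 504 CPM (SD, n = 3) to 346 ± 73.7 CPM (SD, n = 4) in MI, a log2 fold change of -3.24, while Mrpl36 itself fell by 1.29 on that scale. Mitd1, across from Mrpl30, was higher in MI (1.15) and lower in FapKO than in MI (-1.05), opposite to Mrpl30 in both. Fau, a cytosolic ribosomal protein gene across from Mrpl49, was at 397 ± 22.8 CPM in sham and 417 ± 36.0 CPM in MI (SD, n = 3 and 4) and did not pass. Genes with 1 of the NRF1, GABP/ETS or YY1 motifs (43 tested) had a median log2 fold change of -1.77 in MI, and the 25 tested genes with a promoter but none of the 3 had -1.64, with no test made.

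Markers of heart muscle cells moved with the mitoribosomal genes. Of 21 cardiomyocyte markers 20 fell in MI and none rose (median -2.41), and all 21 rose in FAPI (1.57) and FapKO (1.99). None of the 21 was at 0 in all hearts. Their summed level was 107684 to 123887 CPM in the sham hearts and 13423 to 40335 CPM in the MI hearts, with 43857 to 79576 CPM under FAPI and 64747 to 77428 CPM under FapKO. Their mean log2(CPM + 1) lay between 10.5 and 10.6 in sham, between 7.55 and 8.89 in MI, between 9.29 and 10.1 in FAPI and between 9.91 and 10.2 in FapKO hearts. The third MI heart and the fourth FAPI heart had the highest level in their groups both of these markers and of the mitoribosomal genes, as did the third FapKO heart, whereas in sham the first heart was highest in the mitoribosomal genes (7.42) and the second in the markers (10.64, against 10.61 in the first). Macrophage markers went the other way (11 of 12 rose in MI, median 1.81, and 8 and 11 of 12 fell in FAPI and FapKO), summing to 2226 to 2449 CPM in sham against 7891 to 11004 CPM in MI. Fibroblast markers (10 of 10 rose in MI, median 1.54, and 5 and 8 of 10 fell) summed to 3482 to 4043 CPM in sham against 14877 to 21448 CPM in MI. Markers of other immune cells and of fat cells rose in MI too: 7 of 7 tested of neutrophils (median 3.40), 5 of 5 of B cells (2.18), 6 of 6 of T cells (2.20) and 5 of 6 of adipocytes (3.15, with 1 lower). In FAPI against MI 7, 5, 2 and 5 of these fell (medians -3.29, -2.12, -0.62 and -3.34), and in FapKO against MI 7, 1, 6 and 4 fell (-3.05, -0.82, -1.43 and -1.31), with 1 adipocyte marker higher. Proliferation markers rose in 8 of 8 in MI (median 1.12). Smooth muscle and pericyte markers rose in 6 and fell in 2 of 8, and endothelial markers rose in 1 and fell in 5 of 10. In FAPI against MI 4, 4 and 1 of these fell and 0, 2 and 1 rose. In FapKO against MI 0, 5 and 0 fell and 0, 2 and 5 rose. No marker of these lists was at 0 in all hearts, and their part in the mitoribosomal differences was not tested. In bulk tissue, fewer cells of a type and less RNA per cell cannot be told apart. When the cardiomyocyte marker level was added to the fit as a covariate, 15 of the 77 genes were called lower in MI than in sham (3.91% of all genes). The mitoribosomal medians moved to -0.72 (from -1.73) in MI against sham, to 0.08 (from 0.69) in FAPI against MI and to 0.26 (from 1.05) in FapKO against MI. With edgeR none was called higher in FAPI or in FapKO than in MI, where 1 and 8 of the 77 were higher at an unadjusted p under 0.05, and where 0.00586% and 0.158% of all genes were called. In that fit 60 were lower in FAPI than in sham (16.8% of all genes), 56 lower in FapKO than in sham (15.8%) and 7 lower in FAPI than in FapKO (4.31%). The marker level and the groups move together, so what belongs to either cannot be told apart in these hearts.

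The spread between hearts of a group was modest for most genes: the median coefficient of variation over the 77 genes was 11.2% in sham, 15.3% in MI, 17.0% in FAPI and 11.7% in FapKO.

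In the cultured fibroblasts there was no common direction. Of the 77 genes, 31 were higher and 8 lower in co-culture than in fibroblasts grown alone, against 30.3% and 29.5% of all genes tested, and 49 of 77 did not overlap, against 67.0% of all genes. The median log2 fold change was 0.12, beside -0.06 for all genes, and 7 genes rose by at least 1 (18.5% of all genes) while none fell as far. Mrps34 had the largest difference, from 0.531, 0.876 and 0.698 CPM alone to 7.27, 7.38 and 5.41 CPM in co-culture (log2 fold change 3.24, SE 0.30, adjusted p = 2.7e-05 by edgeR), and it is 1 of the 10 genes whose exons overlap others. Mrpl2, a core protein next to the peptidyl transferase centre, was at 61.8, 59.9 and 61.1 CPM alone and at 145, 138 and 128 CPM in co-culture (1.17). Mrps18b (1.26, mean 1.36 CPM alone and 3.30 CPM in co-culture) and Mrpl24 (1.24) were higher too, and both are among those 10 genes. Mrpl23 (1.14), Mrps24 (1.08) and Mrpl12 (1.01) followed.

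Mrpl42 was the furthest below 0, at 438, 572 and 366 CPM alone and at 279, 255 and 191 CPM in co-culture (-0.93, SE 0.19). The other 7 that were lower were Mrpl1 (-0.68), Mrps22 (-0.66), Mrpl50 (-0.58), Mrpl18 (-0.56), Mrpl21 (-0.41), Mrpl33 (-0.35) and Mrps25 (-0.33). Mrps36 was higher in co-culture (0.69), as were Mrpl58 (0.76), Mrpl34 (0.68), Mrpl41 (0.67), Mrps18a (0.59) and Mrps12 (0.46), while Mrps30 (0.17) and Mrps18c (0.09) did not pass.

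The culture differences went with the base composition and length of the transcripts. Over the 77 genes the log2 fold change had a Pearson correlation of 0.53 (Spearman 0.52) with the GC content of the longest transcript and of -0.38 (Spearman -0.49) with the logarithm of its length. Over all genes tested the same values were 0.37 (0.43) and -0.32 (-0.34), as a description across genes measured in the same 6 libraries. Median GC content was 52.6% in the 31 higher genes and 45.9% in the 8 lower ones. When the trend with GC content and length over all genes was removed, an alternative chosen after seeing the data, 17 genes were higher and 22 lower (23.4% and 25.2% of all genes). Of the 31 higher genes 10 were still called higher, 14 were not called and 7 were called lower (Mrpl14, Mrpl34, Mrpl38, Mrpl54, Mrps12, Mrps21 and Mrps28). In the hearts no such correlation over the 77 genes exceeded 0.22 in size.

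**Figure D5:**
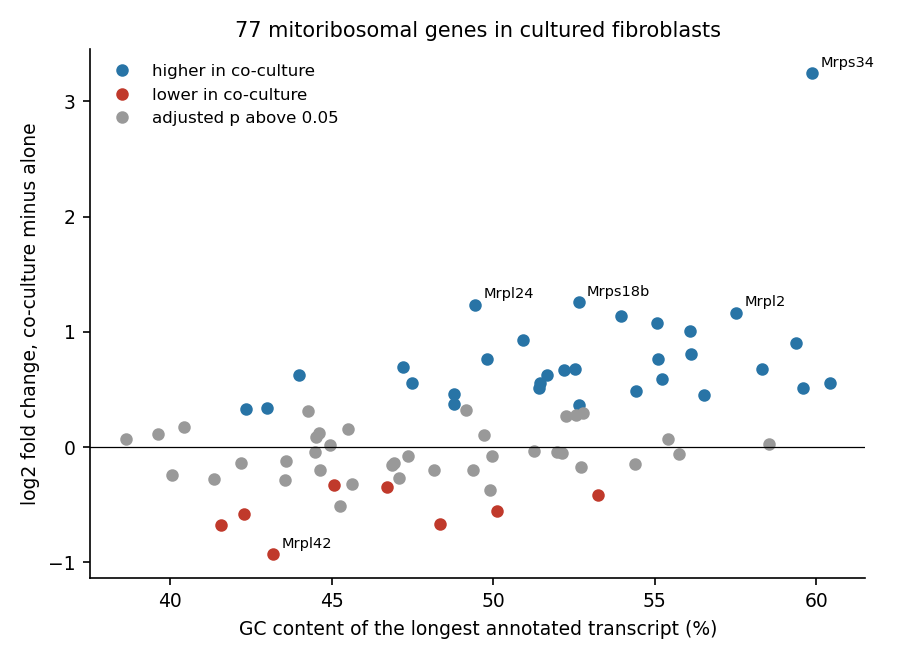
Log2 fold change of co-culture minus alone (y axis) against the GC content of the longest annotated transcript (x axis, percent) for 77 mitoribosomal genes, coloured by call. Genes called higher (blue, median GC 52.6%) lie further to the right than genes called lower (red, 45.9%), with Mrps34 alone above 3.

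Scaling also moved the split in culture: with library totals 10 genes were higher and 23 lower (20.4% and 42.0% of all genes), while the median of all genes moved from -0.06 to -0.41. Without the second library grown alone 15 genes were lower (32.83% of all genes), and without the first or the third co-culture library 5 and 4 (25.12% and 22.76%). In the same comparison 50 of 76 nuclear respiratory chain genes were higher and 3 lower (median 0.54), and 23 and 6 with library totals (median 0.18). Proliferation markers were lower in 8 of 8 (median -2.02, summed 192 to 234 CPM in co-culture and 610 to 750 CPM alone). Macrophage markers were lower in 9 of 11 tested (summed 408 to 528 CPM against 910 to 1455 CPM), with none of the 12 at 0 in every culture. Of the 10 fibroblast markers, none of which was at 0 in every culture, 4 were higher and 2 lower (from -1.34 to 2.70). They summed to 7552 to 7935 CPM in co-culture and 4771 to 10790 CPM alone. Smooth muscle and pericyte markers were lower in 4 of 5 tested and higher in 1 (median -2.06). They summed to 563 to 666 CPM in co-culture and 1510 to 2565 CPM alone. Adipocyte markers were higher in 2 of 3 tested (median 3.55). The 10 endothelial markers summed to 26.7 to 32.1 CPM in co-culture and 23.1 to 25.8 CPM alone. Of 21 cardiomyocyte markers 4 passed the filter, none of which was called, and Myl3 and Pln were at 0 in every culture. With all 6 libraries thinned to the smallest total, an alternative also chosen after seeing the data, 30 genes were higher and 7 lower (30.42% and 29.44% of all genes), with a median of 0.14. The part of the sort and of these cell markers in the culture differences was not tested.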

How the data were processed

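The genes and lists were chosen with earlier results of these data known. Per the labels' protocols, libraries followed a Smart-seq2 variant whose primers carry UMIs. Per the submitters' processing notes, the authors used STAR and HTSeq with mm10, and they deposited whole-number counts per gene, with no normalization. The sources used here give neither the strand setting nor whether UMIs were collapsed. A table of the whole series had 6 columns that matched no sample, which were not used. Identifiers were matched to GENCODE M21 without their version (53620 of 53801). Counts were tested with edgeR 4.0.16 (filterByExpr, TMM, quasi-likelihood F test, Benjamini-Hochberg over all genes), the 15 hearts in 1 fit and the 6 cultures in another, and this was tested on simulated data. Alternatives used DESeq2 1.42.0 and limma 3.58.1 in R 4.3.3. Named genes are, per comparison, up to 10 called genes in each direction with the largest change, up to 5 that did not pass, and 10 genes chosen for their roles. No replicate was a copy of another (chi-square divided by its degrees of freedom, 3.14 to 178). Total counts set the precision.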

Additional observations from a re-analysis of the deposited data

Results flagged for a closer look

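Of the 231 sets of 4 hearts, 1 for each of 77 genes in each of the MI, FAPI and FapKO groups, 8 held 1 heart far from the other 3 by Dixon's criterion, where chance alone gives about 1 in 20. In 6 of the 8, the third FapKO heart was the highest. It was at 230.6 CPM for Mrpl14 (others 165.5 to 173.3), 137.8 for Mrpl17 (116.0 to 116.7), 319.9 for Mrpl18 (238.6 to 245.2), 148.8 for Mrpl45 (111.4 to 115.2), 151.2 for Mrpl48 (116.2 to 117.5) and 266.0 CPM for Mrps18a (197.2 to 205.8). That heart also had the highest mitoribosomal level (6.82) and cardiomyocyte marker level (10.2) of the FapKO group. The fourth FAPI heart was at 50.24 CPM for Mrpl50 (others 41.80 to 43.14), and the second MI heart at 25.68 CPM for Mrps6 (36.42 to 37.81).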

How the results depend on the processing

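Under RLE size factors, limma-voom, both other filters on low counts, a fit of only the 2 groups compared and scaling without the mitochondrially encoded and 50 most abundant genes, every count of called genes stayed within 1.5 times the reported one. With DESeq2 this held for all but FAPI against FapKO (31 genes lower instead of 17, with 8.389% of all genes lower). The main fits did not treat libraries as paired by number. Same-numbered hearts deviated together with correlations of 0.193, 0.103 and 0.0779 in MI and sham. In FapKO and MI these were 0.107, 0.0648, 0.301 and 0.322. The other comparisons ran from -0.294 to 0.192, so that in none was every correlation above 0.1. With so few libraries this cannot exclude pairing. With a replicate block 10 genes were lower in FAPI than in FapKO (5.444% of all genes), while no other count moved by over 1.5 times. Library totals as the scale gave 5 higher in MI than in sham, 43 higher and 2 lower in FAPI and 2 lower in FapKO than in MI, 1 higher and 15 lower in FapKO than in sham, and 10 higher and 23 lower in co-culture. Among all genes called, the share higher moved with it from 53.7% to 86.1% in MI against sham, 60.1% to 14.6% in FAPI and 49.1% to 16.6% in FapKO against MI, 52.4% to 86.8% in FAPI and 48.7% to 91.8% in FapKO against sham, 53.5% to 67.9% in FAPI against FapKO, and 50.7% to 32.7% in co-culture. Over all 77 genes it changed the sign of 7 of 77 called genes in MI against sham (5 of them called higher), 5 of 68 in FAPI and 5 of 75 in FapKO against MI (1 of them, Mrpl17, called lower), 9 of 74 in FAPI and 15 of 69 in FapKO against sham and 2 of 39 in co-culture. Among the named genes these were, beside those in the report, Mrps12 in FAPI against MI (-0.029), Mrps18c in FAPI (0.0016) and FapKO (0.011) against sham and Mrpl34 in FapKO against sham (0.062). A minimum log2 fold change of 1 left 8, 41, 41 and 4 genes in FAPI and FapKO against MI and against sham, 0 in FAPI against FapKO, and 7 higher and 0 lower in co-culture. With the cardiomyocyte marker level as covariate the counts were 15 lower (MI against sham), 0 higher in edgeR's test (FAPI and FapKO against MI, where 1 and 8 were higher at an unadjusted p under 0.05) and 7 lower (FAPI against FapKO), and 2, 20 and 9 called genes changed sign in MI against sham, FAPI against MI and FapKO against MI, none of them called the other way. Among the named genes these were Mrps18c in MI against sham (0.14), Mrpl12 (-0.058), Mrpl58 (-0.15), Mrps18a (-0.22) and Mrps27 (-0.037) in FAPI against MI, and Mrps18a (-0.037) and Mrps18c (-0.41) in FapKO against MI. Removing the trend with GC content and length gave 17 higher and 22 lower in co-culture and changed the sign of 11 of the 39 called genes, 7 of which were called the other way. Among the named genes these were Mrpl14 (-0.38), Mrpl34 (-0.61), Mrpl41 (-0.14), Mrps12 (-0.59) and Mrps25 (0.29). It moved no heart count by over 1.5 times. With all 6 cultures thinned to the smallest total, 30 genes were higher and 7 lower (30.42% and 29.44% of all genes). Leaving out 1 library at a time gave 0 to 44 genes lower in FAPI than in FapKO (2.905% to 8.05% of all genes). The 0 was in edgeR's test, with 32 lower at an unadjusted p under 0.05. In co-culture 4 to 15 were lower (22.76% to 32.83% of all genes) and 27 to 33 higher (25.68% to 32.95%). In MI against sham 76 to 77 were lower (29.44% to 31.97%). Against MI, 57 to 70 were higher in FAPI (13.3% to 19.5%) and 71 to 75 in FapKO (22.26% to 25.8%). Against sham, 72 to 76 were lower in FAPI (22.62% to 26.3%) and 55 to 73 in FapKO (14.1% to 20.42%). The causes of these changes were not tested. The trend removal and the thinning were chosen after seeing the data. Mrps34 and Mrps18b were at 2.42 CPM or less in every heart, which limits the precision of their fold changes.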
